A study of Capra hircus with 6 samples.

Results

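The 9 genes examined here belong to the neuronal circuit that drives gonadotropin-releasing hormone (GnRH) secretion and were measured in goat hypothalamus: GNRH1, KISS1, KISS1R, TAC3, TACR3, PDYN, OPRK1, NPVF and NPFFR1. They were chosen by name, and they are 9 of the 20225 genes of the mRNA table and hold 14 of its 30679 transcripts. The level of a gene was the sum of the FPKM of its transcripts in a library. FPKM is the number of sequenced fragments scaled by transcript length and by the mapped fragments of the library, so that it is a level per length and can be compared between genes.

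Hypothalamic tissue was taken from female Anhuai goats. The pubertal group was 3 goats aged 4.5 to 5 months, in which puberty was judged from oestrus detected by male goats and from changes of the vulva, and tissue was taken in the late follicular phase. The prepubertal group was 3 goats aged 2.5 to 3 months. No treatment is given for either group, and both were housed alike. The paper gives higher mean body and ovary weights for the pubertal goats. Age, body weight, cycle phase and stage cannot be told apart. Each goat gave 1 paired-end RNA library, which is called replicate 1, 2 or 3 of its group. With 3 against 3 libraries, an exact permutation test of a single gene cannot give a p below 0.1.

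GnRH neurons are few and scattered in the ventral forebrain, and they send axons to the median eminence, where the peptide enters the portal blood and releases the gonadotropins from the pituitary. Kisspeptin, the product of KISS1, acts on these neurons through its receptor KISS1R. In ruminants the kisspeptin neurons of the arcuate nucleus also make neurokinin B (TAC3) and dynorphin (PDYN) and are called KNDy neurons. Neurokinin B excites them through its receptor TACR3, and dynorphin inhibits them through the kappa opioid receptor OPRK1. RFamide-related peptide, which NPVF encodes, is a further peptide that acts on the reproductive axis through NPFFR1.

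GNRH1 was higher in every pubertal than in every prepubertal library, and it was the single gene of the 9 for which this was so. None of the 9 genes passed the test across all genes. Of the 16397 genes with a mean of at least 0.1 FPKM, limma called 0 (0%) at an adjusted p under 0.05 and 846 (5.16%) at an unadjusted p under 0.05. GNRH1 was 1 of 9 at the unadjusted threshold. The pubertal libraries lay all above the prepubertal ones in 969 genes (5.91%) and all below them in 629 (3.84%), together 1598 genes (9.75%). Among the 9 genes, 1 lay all above and 0 all below. The median log2 fold change of the 9 genes was -0.05, beside -0.00 for all genes tested, and 3 of the 9 values were above 0 and 6 below. Fold changes are differences of mean log2(FPKM + 1), pubertal minus prepubertal, which understates the change of genes with low levels.

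**Figure D1:**
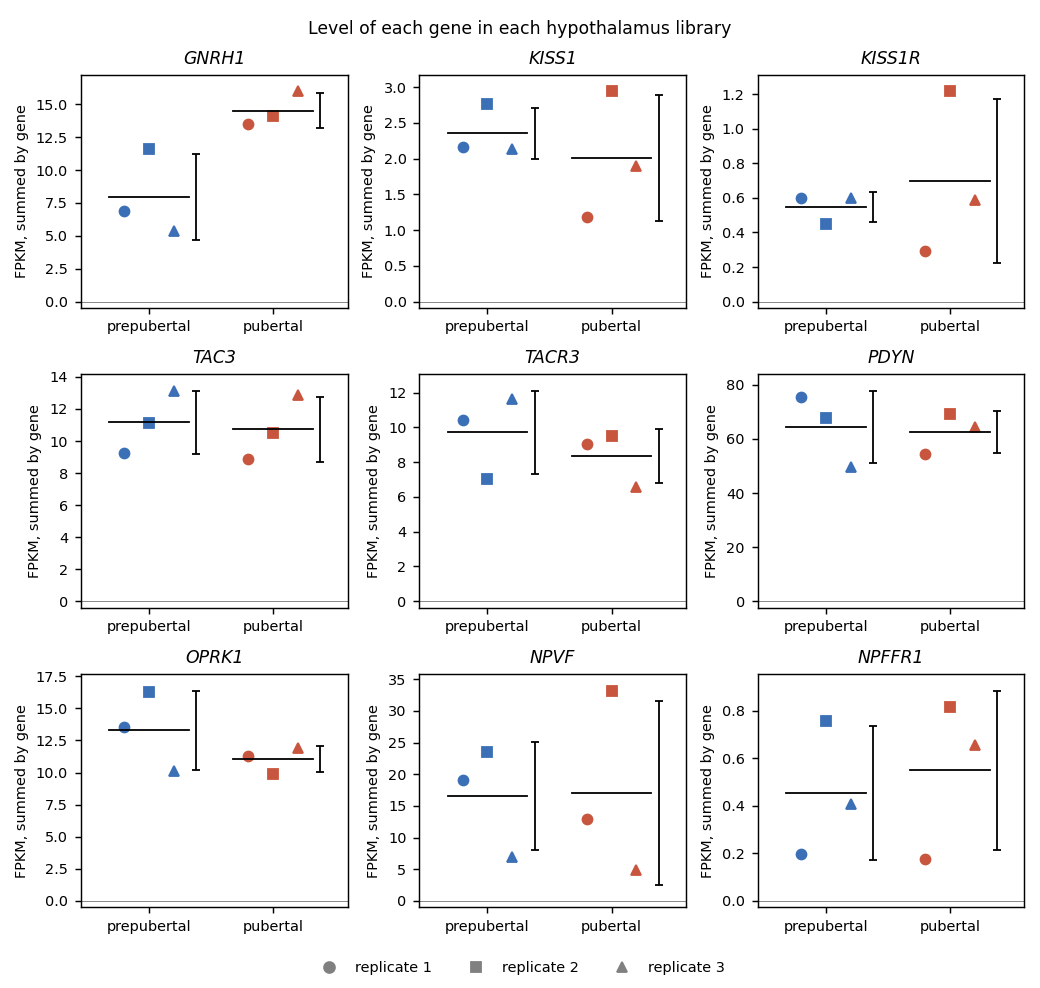
Level of each of the 9 genes (y axis, FPKM summed over transcripts) in the 3 prepubertal and 3 pubertal libraries, with 1 point per library and its shape giving the replicate number; the line is the group mean and the bar beside it the SD. GNRH1 is the single panel in which the groups do not overlap, with pubertal levels of 13.5 to 16.0 and prepubertal levels of 5.34 to 11.6 FPKM.

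By the mean over the 6 libraries, PDYN stood first at 63.5 FPKM and exceeded 89.9% of the genes tested. NPVF followed at 16.8, OPRK1 at 12.2, GNRH1 at 11.2, TAC3 at 11.0 and TACR3 at 9.04 FPKM. KISS1 was lower at 2.18 FPKM, and the receptors KISS1R and NPFFR1 stood last at 0.624 and 0.502 FPKM. The ranges over the libraries were apart at 2 steps of this order. The lowest PDYN level, 49.6 FPKM, was above the highest NPVF level of 33.2. The lowest TACR3 level, 6.59 FPKM, was above the highest KISS1 level of 2.94. From NPVF to TACR3 the neighbours in the order overlapped, and each was above the next in 3 or 4 of 6 libraries. KISS1 was above KISS1R in 6 of 6 libraries, although their ranges overlapped slightly. KISS1R and NPFFR1 overlapped, with KISS1R higher in 4 of 6. In a bulk sample, fewer cells of a type and less RNA per cell cannot be told apart.

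The number of fragments behind these levels could be read from the files. In genes with 1 transcript the deposited FPKM values were whole multiples of the value that 1 fragment had at that length. Of the values up to 5 fragments, between 99.9% and 100% per library lay within 0.05 of a whole number. One fragment on a transcript of 1000 nt was worth 0.0562 to 0.0760 FPKM, a ratio of 1.35 between the deepest library (prepubertal replicate 3) and the shallowest (pubertal replicate 3). Summed over the 6 libraries, PDYN rested on 19011 fragments, TACR3 on 1740, OPRK1 on 1185, TAC3 on 773, NPVF on 767 and GNRH1 on 375. KISS1 rested on 68 fragments, KISS1R on 63 and NPFFR1 on 34. The sums of PDYN and TAC3, which have several transcripts, are estimates. That of GNRH1 takes all its fragments as those of 1 transcript. The 95% Poisson intervals given for these fragments cover counting error only.

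GNRH1, which encodes the GnRH precursor, was at 13.5, 14.1 and 16.0 FPKM in pubertal replicates 1 to 3 and at 6.92, 11.6 and 5.34 FPKM in prepubertal replicates 1 to 3. The pubertal libraries lay close together, and prepubertal replicate 2 stood between them and the other two prepubertal libraries. The mean was 14.5 ± 1.30 FPKM in pubertal and 7.95 ± 3.25 in prepubertal goats (SD, n = 3 each), a ratio of 1.83. The log2 fold change was 0.85 with a standard error of 0.23, and limma gave an unadjusted p of 0.00577 and an adjusted p of 0.779. The exact permutation test gave p = 0.1, the smallest it can give. The limma p sets the group difference against a moderated spread between these libraries. Moderation draws the variance of GNRH1 toward that of other genes at a similar level, so this p does not rest on GNRH1 alone. The permutation p ranks the group difference among the regroupings of the same libraries.

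All GNRH1 fragments were assigned to 1 of its 2 transcripts, XM_005684019.1 of 508 nt, while XM_013966090.1 of 550 nt was listed at 0 in all 6 libraries. The assignment of reads between the 2 transcripts is itself an estimate, so counting gives no upper bound for this 0. There were 75, 89 and 74 fragments in the pubertal and 35, 69 and 33 in the prepubertal libraries. Counting error alone put prepubertal replicate 2 between 9.01 and 14.7 FPKM and pubertal replicates 1 to 3 between 10.6 and 16.9, 11.3 and 17.4, and 12.5 and 20.1, so the interval of prepubertal replicate 2 overlapped all 3 pubertal ones. Prepubertal replicates 1 and 3 reached at most 9.62 and 7.50 FPKM, below the lower bound of each pubertal library. With each library left out in turn, the GNRH1 log2 fold change lay between 0.63 and 1.13 and the unadjusted p of limma between 0.000122 and 0.0216. The adjusted p stayed between 0.299 and 1 over all 15 alternatives, and the sign did not change in any of them.

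**Figure D2:**
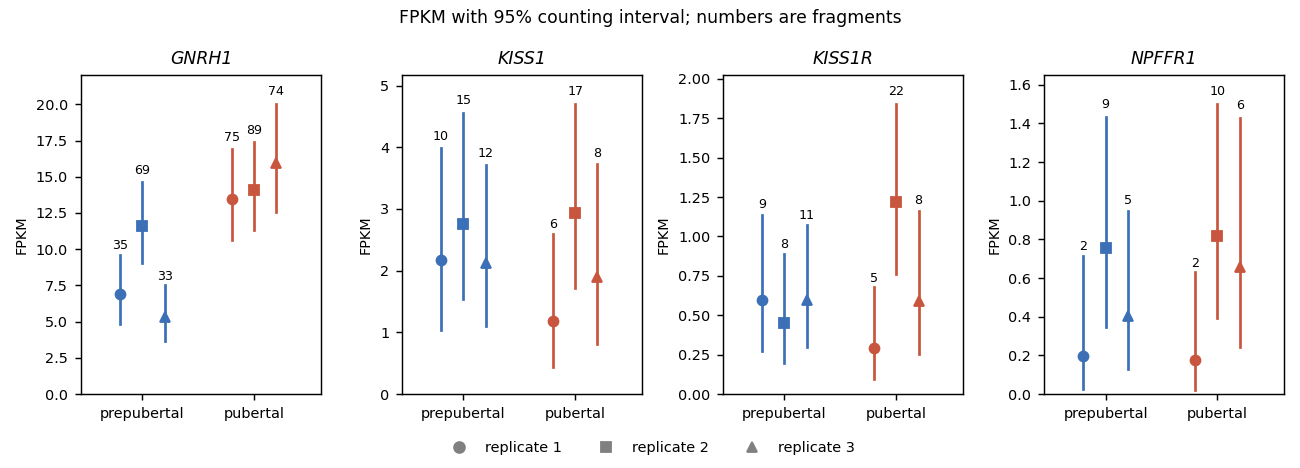
FPKM (y axis) of GNRH1 and of the 3 genes with the fewest fragments in each library, with the 95% Poisson interval as a vertical line and the number of fragments printed above it. The GNRH1 intervals of prepubertal replicates 1 and 3 lie below those of the 3 pubertal libraries, while the intervals of KISS1, KISS1R and NPFFR1 overlap across the groups.

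Other tissue that a dissection of the hypothalamus can hold was also read from lists of marker genes. Of 7 anterior pituitary markers tested, 2 were above in all pubertal libraries. CGA, the shared alpha subunit of the glycoprotein hormones, was at 50.1, 62.5 and 39.4 FPKM in the pubertal and at 2.24, 18.0 and 3.32 FPKM in the prepubertal libraries. The other was TSHB, the thyrotropin beta subunit, at 2.46, 2.33 and 4.04 against 0.724, 1.84 and 0 FPKM. GH1, which marks somatotrophs, was listed at 0 in all libraries but pubertal replicate 3, where it was at 7.79 FPKM. The summed level of the pituitary list ranged from 53.0 to 66.2 FPKM in the pubertal and from 3.75 to 21.2 in the prepubertal libraries. CGA alone made up most of this sum in each library. Apart from CGA and TSHB, the pituitary markers tested overlapped between the groups.

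Of the 4 meningeal fibroblast markers, 3 were above in all pubertal libraries, and the summed level was 96.4 to 226 against 36.5 to 69.5 FPKM. DCN, a matrix proteoglycan, was at 48.3, 40.3 and 86.9 against 16.1, 28.2 and 26.1 FPKM. The collagen genes COL1A1 and COL1A2 were the other two. The 7 neuron markers had log2 fold changes below 0 in 7 of 7, and their mean log2 level was lower by 0.16 in the pubertal libraries, at 6.64 against 6.80. The part of these tissues in the GNRH1 difference was not tested. With each library centred on its neuron markers, which adds this shift to every gene, the log2 fold change of GNRH1 was 1.01.

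**Figure D3:**
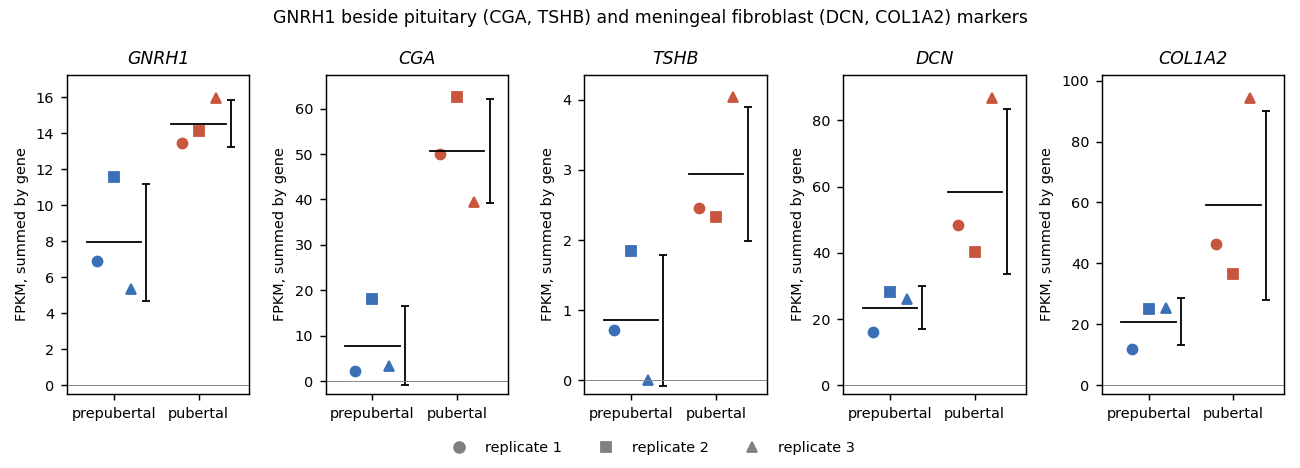
FPKM summed by gene (y axis) of GNRH1, of the pituitary markers CGA and TSHB and of the meningeal fibroblast markers DCN and COL1A2 in each library, with group mean (line) and SD (bar). The markers drawn were chosen after their values were seen, from those in which the groups did not overlap. That the pubertal libraries lie above the prepubertal ones in all 5 panels therefore follows from the choice. The highest prepubertal library is replicate 2 for GNRH1, CGA, TSHB and DCN and replicate 3 for COL1A2. For COL1A1, which separated the groups but is not drawn, it is also replicate 3, at 7.68 FPKM.

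The hypothalamic identity of the samples rested on 6 of the 11 markers listed, of which 5 were tested. PMCH, the melanin-concentrating hormone precursor of the lateral hypothalamus, was at 673 to 2173 FPKM, while AVP was listed at 0 in all 6 libraries and NKX2-1, RAX, OXT, HCRT and TRH were not matched by symbol. AVP encodes vasopressin, an abundant hypothalamic peptide, so that a 0 in these files can be a failed estimate. In the arcuate list, where KNDy neurons lie, 2 of 6 genes had an unadjusted limma p under 0.05. AGRP, a peptide of feeding neurons, was at 22.7, 5.69 and 28.3 against 97.5, 176 and 22.3 FPKM, with a log2 fold change of -2.15 and an adjusted limma p of 0.883. POMC was at 34.4, 85.1 and 429 against 47.4, 22.9 and 24.3 FPKM, with a log2 fold change of 1.83 and an adjusted limma p of 0.959. In the lists for the paraventricular and supraoptic nuclei, suprachiasmatic nucleus, lateral hypothalamus, ventromedial nucleus, cerebral cortex, choroid plexus, astrocytes, oligodendrocytes and microglia, 0 genes were apart between the groups. Pubertal replicate 3 stood apart for POMC and also for the choroid plexus marker TTR, at 309 FPKM beside 1.14 to 53.4 in the other libraries. It was also the highest library for the pituitary markers GH1 and TSHB, at 7.79 and 4.04 FPKM. CGA was highest in pubertal replicate 2. Which tissue gave the POMC level of pubertal replicate 3 was not tested.

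KISS1, the kisspeptin gene, did not differ between the stages beyond the spread between libraries. It was at 1.19, 2.94 and 1.89 FPKM in the pubertal and at 2.17, 2.76 and 2.13 FPKM in the prepubertal libraries. Pubertal replicates 1 and 2 were the lowest and the highest of all 6, so the prepubertal values lay inside the pubertal range. The means were 2.01 ± 0.882 and 2.35 ± 0.355 FPKM (SD, n = 3 each). The log2 fold change was -0.19 with a standard error of 0.21 and an adjusted limma p of 0.962, and the exact permutation p was 0.5. Its single transcript, NM_001285710.1 of 485 nt, was counted in 6, 17 and 8 fragments in the pubertal and 10, 15 and 12 in the prepubertal libraries. With 6 fragments, pubertal replicate 1 could lie between 0.436 and 2.59 FPKM by counting alone. Without this library the log2 fold change was 0.01, and without pubertal replicate 2 it was -0.41. The lowest unadjusted limma p of KISS1 with a single library left out was 0.0483, and the lowest adjusted p was 0.718.

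KISS1R, the kisspeptin receptor, was at 0.290, 1.22 and 0.590 FPKM in the pubertal and at 0.598, 0.450 and 0.600 FPKM in the prepubertal libraries. Pubertal replicate 2 was above every other library, with 22 fragments against 5 to 11 in the others. By counting alone it could lie between 0.763 and 1.84 FPKM, which overlapped the intervals of all prepubertal libraries. Between the groups the log2 fold change was 0.10 with a standard error of 0.19 and an adjusted limma p of 0.978, and the exact permutation p was 0.9. Without pubertal replicate 2 it was -0.11.

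TAC3, which encodes neurokinin B, was at nearly the same level in both groups. The pubertal libraries were at 8.86, 10.5 and 12.9 FPKM and the prepubertal libraries at 9.24, 11.1 and 13.1 FPKM, so the groups covered the same range. The means were 10.7 ± 2.03 and 11.2 ± 1.94 FPKM (SD, n = 3 each), with a log2 fold change of -0.05, a standard error of 0.16 and an adjusted limma p of 0.988. The exact permutation p was 0.7. TAC3 varied least of the 9 genes by the ratio of its highest to its lowest library, which was 1.48.

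The 2 TAC3 transcripts differed in level. NM_001287572.1 of 797 nt held 92.9% to 98.3% of the sum. XM_013963901.1 of 753 nt was at 0.196, 0.174 and 0.372 FPKM in the pubertal and at 0.442, 0.788 and 0.477 FPKM in the prepubertal libraries, without overlap. Its share of the TAC3 sum was 2.25 ± 0.616% in pubertal and 5.17 ± 1.76% in prepubertal goats (SD, n = 3 each). The level of XM_013963901.1 had a log2 fold change of -0.33 with a standard error of 0.15 and an adjusted limma p of 0.972. About 2 to 3 fragments lay behind each pubertal and 4 to 9 behind each prepubertal value, and the assignment of reads between the 2 transcripts is itself an estimate.

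Of the 14 transcripts of the 9 genes, 13 had a mean of at least 0.1 FPKM and were tested. Among them 0 had an adjusted p under 0.05 and 1, that of GNRH1, an unadjusted p under 0.05. In the whole table of 23821 transcripts tested, the shares were 0% and 4.87%. The minor TAC3 transcript was 1 of 13 with all pubertal libraries below, beside 4.04% of all transcripts.

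TACR3, the neurokinin B receptor, was at 9.04, 9.48 and 6.59 FPKM in the pubertal and at 10.5, 7.04 and 11.6 FPKM in the prepubertal libraries. The groups overlapped, and the lowest libraries were pubertal replicate 3 and prepubertal replicate 2. TACR3 had a log2 fold change of -0.18 with a standard error of 0.20, the adjusted limma p was 0.962 and the exact permutation p was 0.5. Its single transcript was counted in 170 to 407 fragments, so counting error was small beside the spread between goats.

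PDYN, the dynorphin precursor, was the most abundant of the 9. It was at 54.3, 69.4 and 64.3 FPKM in the pubertal and at 75.6, 67.8 and 49.6 FPKM in the prepubertal libraries, and both the highest and the lowest value were prepubertal. The means were 62.6 ± 7.68 and 64.4 ± 13.3 FPKM (SD, n = 3 each), with a log2 fold change of -0.02, a standard error of 0.16 and an adjusted limma p of 0.996. The exact permutation p was 1. With 2596 to 3810 fragments in each library, depth did not limit this comparison. Of its 4 transcripts, XM_013968690.1 of 2926 nt held 72.6% to 85.9% of the sum and XM_013968692.1 of 1264 nt held 12.01% to 22.5%. The other two held at most 3.29% each, and no PDYN transcript separated the groups.

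OPRK1, the kappa opioid receptor that binds dynorphin, was at 11.3, 9.91 and 11.9 FPKM in the pubertal and at 13.5, 16.2 and 10.1 FPKM in the prepubertal libraries. Prepubertal replicate 3 lay among the pubertal values and the other two above them. The means were 11.0 ± 1.03 and 13.3 ± 3.08 FPKM (SD, n = 3 each). OPRK1 had a log2 fold change of -0.23 with a standard error of 0.16 and an adjusted limma p of 0.962, and the exact permutation p was 0.3. Without prepubertal replicate 3 it was -0.40, with an adjusted limma p of 0.993. The lowest unadjusted limma p of OPRK1 with a single library left out was 0.0236.

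**Figure D4:**
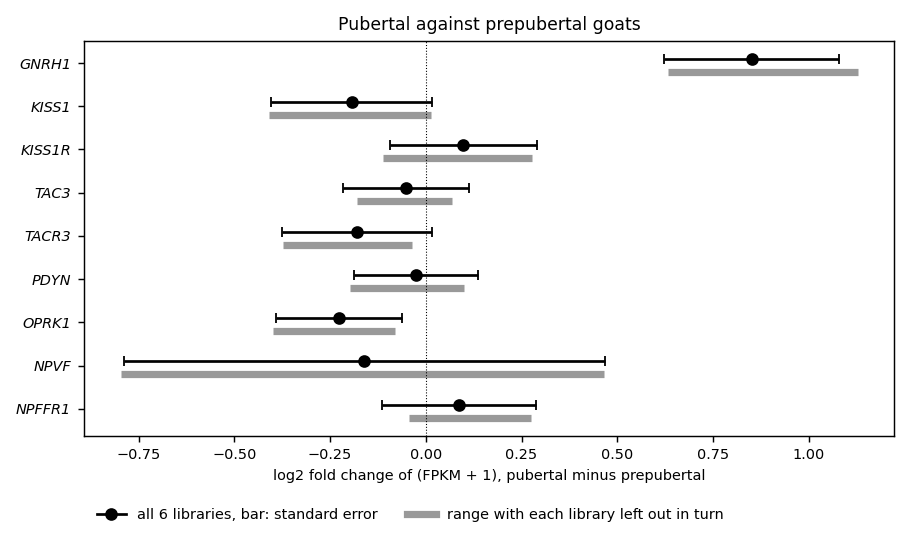
Log2 fold change of (FPKM + 1), pubertal minus prepubertal (x axis), of each gene from all 6 libraries (point, with its standard error as a bar) and the range of the value when each library is left out in turn (grey). The GNRH1 range of 0.63 to 1.13 lies wholly above 0, those of TACR3 and OPRK1 lie below 0, and the others cross 0.

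NPVF, the precursor of RFamide-related peptide, varied most. It was at 12.9, 33.2 and 4.94 FPKM in the pubertal and at 19.1, 23.5 and 7.01 FPKM in the prepubertal libraries, a 6.71-fold range whose highest and lowest values were both pubertal. Its fragments, between 30 and 272 per library, were too many for counting error to span this range. The log2 fold change was -0.16 with a standard error of 0.63, the adjusted limma p was 0.993 and the exact permutation p was 0.9. Leaving out single libraries moved the log2 fold change between -0.80 and 0.46. NPFFR1, its receptor, was at 0.175, 0.817 and 0.657 FPKM in the pubertal and at 0.198, 0.756 and 0.406 FPKM in the prepubertal libraries. These values rested on 2, 10 and 6 and on 2, 9 and 5 fragments. The NPFFR1 log2 fold change was 0.09 with a standard error of 0.20, the adjusted limma p was 0.981 and the exact permutation p was 0.8.

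Plain ratios of 2 genes within a library do not depend on how the libraries were scaled, so the 3 KNDy peptide genes were also compared by ratio. A constant added to both values, as in the tests below, brings back some dependence on scaling at low levels. These are RNA ratios of the whole tissue. Which cells held each transcript was not measured, so they are not the peptide balance of KNDy neurons. The ratio of KISS1 to TAC3 in FPKM was 0.134, 0.281 and 0.147 in the pubertal and 0.235, 0.248 and 0.162 in the prepubertal libraries. With 0.1 added to both FPKM values, here and for the other ratios, its log2 value was -2.43 ± 0.552 for pubertal and -2.19 ± 0.327 in the prepubertal goats (SD, n = 3 each). The log2 ratio of KISS1 to PDYN was -4.98 ± 0.444 and -4.70 ± 0.314, and that of TAC3 to PDYN -2.54 ± 0.210 and -2.51 ± 0.559. For ligand against receptor, the log2 ratio of KISS1 to KISS1R was 1.49 ± 0.261 and 1.92 ± 0.401, and this was the largest of the 7 differences, at -0.43. The differences of the remaining ratios were 0.14 for TAC3 to TACR3, 0.22 for PDYN to OPRK1 and -0.37 for NPVF to NPFFR1. With 0.1 added, none of the 7 ratios separated the groups, and the exact permutation p lay between 0.3 and 0.9, with adjusted values of 0.817 to 0.9. With 1 added instead, the KISS1 to KISS1R difference was -0.29, with an unadjusted exact permutation p of 0.1, the smallest this test can give.

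**Figure D5:**
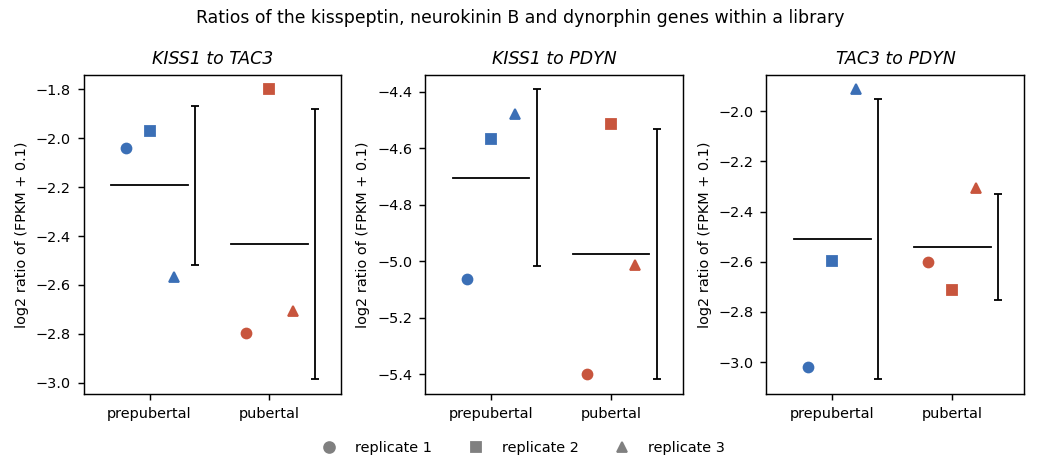
Log2 ratio of (FPKM + 0.1) for the 3 pairs of KNDy peptide genes (y axis) in each library, with group mean (line) and SD (bar). In each panel the groups overlap, and the mean differences of -0.24, -0.27 and -0.03 are smaller than the SD of both groups.

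The levels of GNRH1, KISS1, TAC3 and PDYN were also correlated over the 6 libraries, in 6 pairs, on log2(FPKM + 1). Pearson's r lay between -0.33 for TAC3 and PDYN and 0.53 for KISS1 and PDYN, and the exact permutation p between 0.301 and 0.867, all 0.867 after adjustment. Spearman's rho for KISS1 and PDYN was 0.66, with an exact permutation p of 0.175 and an adjusted p of 0.919. The r of KISS1 and PDYN was 0.22 without the 2 libraries farthest from the median of KISS1 and 0.55 with the stage means subtracted. Leaving out the 2 farthest libraries in the same way moved r from -0.33 to -0.98 for TAC3 and PDYN and from -0.12 to 0.41 for GNRH1 and TAC3, each over the 4 libraries left. For GNRH1 and KISS1, r was -0.09 over all libraries and 0.36 with the stage means subtracted, and rho over all libraries was -0.09. None of the 6 pairs had an adjusted p under 0.05.

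Genes whose pattern over the 6 libraries was most like that of a member were sought among 14081 genes with a mean of at least 1 FPKM. Likeness was the root mean square difference between log2(FPKM + 1) values, each centred on its own mean. Nearest to GNRH1 were LOC102181867 at 0.130 and LOC102180906 at 0.181, beside a spread of GNRH1 about its own mean of 0.521. NR0B1, an orphan nuclear receptor gene, was the second nearest to KISS1 at 0.0842, after the gene with identifier 106503284 at 0.0766. L1CAM, a neuronal adhesion molecule, was the second nearest to TAC3 at 0.0368, after LOC102168713 at 0.0353. TMEM184C and NRN1 were nearest to TACR3 at 0.0578 and 0.0906, NKX2-2 and LAMP5 to PDYN at 0.0505 and 0.0681, and ACVR1C and ZBTB41 to OPRK1 at 0.0641 and 0.0682. Nearest to NPVF were LOC102184937 at 0.193 and the gene 102190686 at 0.492, beside a spread of NPVF of 0.886. No member was among the 2 nearest genes of another. The lowest rank of a member was that of KISS1 in the order of NPVF, at 353. Their difference of 0.771 was little below the NPVF spread of 0.886, so this rank does not mark alike patterns. By the difference itself, PDYN and OPRK1 were closest at 0.218, which was above the PDYN spread of 0.207.

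The genes that flank each member in the RefSeq annotation of the goat assembly ARS1.2 were read in the same fit. Of 18 flanking genes, 1 had an unadjusted limma p under 0.05, beside 5.16% of all genes. It was DOCK5, next to GNRH1. DOCK5 was at 2.40, 1.82 and 2.23 FPKM in the pubertal and at 1.15, 1.78 and 1.61 FPKM in the prepubertal libraries, with a log2 fold change of 0.33. KCTD9, on the other side of GNRH1, had a log2 fold change of 0.09. The 18 values ranged from -0.17 to 0.33.

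The study's list of long non-coding RNAs and their neighbouring genes was used here in part only, and the loci found near a member in it were XLOC_640097 near OPRK1 and XLOC_777127 near KISS1. The first is shown because its groups did not overlap. The 1 transcript of XLOC_640097, TCONS_01280021, is 462 nt long, and its bases 1 to 300 as deposited read as follows. Its position and strand are not given in the sources used here.
TCONS_01280021: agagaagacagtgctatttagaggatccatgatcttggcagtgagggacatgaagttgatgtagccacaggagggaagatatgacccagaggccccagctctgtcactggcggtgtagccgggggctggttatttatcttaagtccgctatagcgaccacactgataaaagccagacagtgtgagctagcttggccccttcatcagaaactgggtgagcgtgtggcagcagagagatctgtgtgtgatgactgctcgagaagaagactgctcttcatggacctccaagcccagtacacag

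TCONS_01280021 was listed at 0, 0.380 and 0 FPKM in the pubertal and at 1.20, 0.612 and 1.57 FPKM in the prepubertal libraries, which corresponds to 0, 2 and 0 and to 5, 3 and 8 fragments. By counting, the zeros allow levels up to 0.815 and 0.962 FPKM. All pubertal libraries lay below the prepubertal ones, as in 3.79% of the 2925 lncRNAs tested. This was a log2 fold change of -0.91 with a standard error of 0.25 and an adjusted limma p of 0.943. It was among the 3.52% of lncRNAs tested with an unadjusted p under 0.05. OPRK1 itself did not separate the groups. The 2 transcripts of XLOC_777127 swung against each other, from about 0 to 29 and from about 0 to 31 fragments, while their sum stayed at 25 to 34 fragments in every library. The summed level was 0.672 ± 0.163 FPKM in pubertal and 0.595 ± 0.130 in prepubertal goats (SD, n = 3 each).

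Other genes of the pathway were read from 5 lists with 73 genes, of which 71 were in the table and 67 were tested. Among them 0 had an adjusted and 0 an unadjusted p under 0.05 in limma, 3 lay all above and 2 all below in the pubertal libraries, together 7.46% beside 9.75% of all genes. Their median log2 fold change was -0.02.

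The tachykinin, opioid and RFamide genes related to TAC3, PDYN and NPVF gave 0 above and 1 below among 13 tested, with a median log2 fold change of -0.04. PENK, the enkephalin precursor, was the one below, at 62.4, 61.3 and 53.3 against 66.0, 62.6 and 73.0 FPKM, with a log2 fold change of -0.19 and an adjusted limma p of 0.962. TAC1, the substance P precursor, was higher in level than TAC3, at 65.3 to 109.8 FPKM in the pubertal and 80.6 to 127 in the prepubertal libraries. OPRL1 and PNOC, the nociceptin receptor and precursor, had log2 fold changes of -0.10 and -0.04. TAC4 and PRLH were listed at 0.

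Sex steroid receptors and steroid enzymes gave 0 above and 1 below among 8. CYP19A1, the aromatase that makes oestradiol, was at 0.780, 0.592 and 0.781 FPKM in the pubertal and at 1.28, 0.939 and 0.827 in the prepubertal libraries, with an adjusted limma p of 0.962. ESR1, the receptor that carries the feedback of oestradiol to kisspeptin neurons, was at 4.38 ± 0.299 and 4.08 ± 0.696 FPKM (SD, n = 3 each), with overlapping groups. GPER1, PGRMC1 and SRD5A1 also overlapped, with log2 fold changes of -0.30, -0.17 and -0.02.

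Genes for processing, packaging and breakdown of peptides gave 0 above and 0 below among 15, with 12 log2 fold changes below 0 and a median of -0.07. Their summed level was 2757 to 3064 FPKM in the pubertal and 3173 to 3473 FPKM in the prepubertal libraries, a difference in the same direction as that of the neuron markers. SCG2 and CPE, a granin and a carboxypeptidase of the secretory granule, had log2 fold changes of -0.25 and -0.19. PCSK1N and SCG5 had log2 fold changes of -0.21 and -0.15.

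Genes of GnRH neuron development gave 1 above and 0 below among 18, with a median log2 fold change of 0.03. The one above was AXL, a receptor tyrosine kinase, at 13.9, 14.0 and 16.7 against 12.03, 13.3 and 12.7 FPKM, with a log2 fold change of 0.21 and an adjusted limma p of 0.962. WDR11, NSMF, NRP2 and ANOS1 had log2 fold changes from -0.02 to 0.02. Genes of Gq and Gi signalling, the routes of KISS1R and TACR3 and of OPRK1, gave 2 above and 0 below among 13. ITPR1, a calcium release channel, was at 17.1 ± 1.40 and 14.8 ± 0.992 FPKM, and PLCB3, a phospholipase C, at 6.35 ± 0.512 and 5.61 ± 0.223 FPKM (SD, n = 3 each), both with an adjusted limma p of 0.962. GNAI1, GNAI2, ARRB1 and GNAO1 overlapped between the groups.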

How the data were processed

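Pubertal and prepubertal goats were compared by RNA-seq of 6 hypothalamus libraries, which the labels place in 2 groups of 3. According to the methods, the authors depleted ribosomal RNA, aligned paired-end reads with TopHat, assembled transcripts and quantified them with Cufflinks and Cuffdiff (2.1.1 for both in the submitters' processing notes). The genome build is not given in the sources used here. The deposited FPKM values of mRNA and lncRNA transcripts were made by the authors per library. Other deposited columns, transcript length and lncRNA sequence, were used as given. The authors' group FPKM, fold changes, p-values and q-values were not used. Per-sample columns left unused numbered 0.

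FPKM was summed by gene, and 19083 of 20225 genes (94.4%) received a symbol from the RefSeq table of assembly ARS1.2, used for names and neighbour order only. Groups were compared with limma (version 3.58.1, R 4.3.3; two-sided, trended eBayes) using log2(FPKM + 1) of features with a mean of at least 0.1 FPKM, with Benjamini-Hochberg adjustment over all features of a table and a threshold of 0.05. It was tested on simulated data. Ratios and correlations were tested by exact permutation, two-sided. Fragments were recovered from the FPKM steps of single-transcript genes of 450 to 4000 nt. Other steps ran in Python 3.11.15 with pandas 2.3.3, numpy 2.4.6, matplotlib 3.10.9 and scipy 1.17.1. Named genes were all 9 members, the 4 most abundant genes of each pathway list, those of a list that separated the groups, and the 2 genes most like each member with a mean of at least 1 FPKM. The marker genes and flanking genes given with values were chosen after their values were seen. Members and lists were chosen with earlier results of these data known. One marker gene is not reported here.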

Additional observations from a re-analysis of the deposited data

How the results depend on the processing

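No adjusted p of a member or of its transcripts passed 0.05 under any alternative (other pseudocounts, filters, normalizations, variance models, the replicate block and each library left out). The replicate numbers did not pair the libraries (correlations of the deviations -0.02, -0.10 and 0.08), and a fit with the replicate block called 1 gene and 0 lncRNAs, beside 0 and 1 without it. Centring on neuron markers called 2 genes, and 1834 at an unadjusted p, and turned TAC3 to 0.11, PDYN to 0.14 and NPVF to 0.0023, and quantile normalization turned PDYN to 0.024. With 1 library left out, calls ranged from 0 to 4 genes, 0 to 1 transcripts and 0 to 9 lncRNAs, and unadjusted calls from 500 to 2220 genes and 828 to 2522 transcripts, the highest without pubertal replicate 1. Left-out libraries turned the sign of KISS1 (-0.41 to 0.014, also its transcript), KISS1R (-0.11 to 0.28), TAC3 (-0.18 to 0.067), PDYN (-0.20 to 0.10), NPVF (-0.80 to 0.46) and NPFFR1 (-0.044 to 0.27). They also turned the transcripts XM_013968690.1 (-0.26 to 0.0020), XM_005688226.2 (-0.0097 to 0.52) and XM_013968692.1 (-0.063 to 0.45) of PDYN, NM_001287572.1 of TAC3 (-0.14 to 0.11) and the lncRNA TCONS_01525789 (-0.33 to 0.010). Among the log2 ratios, TAC3 to PDYN ran from -0.29 to 0.27 and was 0.080 with the most abundant transcripts, TAC3 to TACR3 from -0.16 to 0.36 and NPVF to NPFFR1 from -0.91 to 0.50. The correlation of GNRH1 with KISS1 ran from -0.34 to 0.26 and was 0.36 with stage means subtracted. Those of GNRH1 with TAC3 ran from -0.50 to 0.55, GNRH1 with PDYN from -0.61 to 0.71, KISS1 with TAC3 from -0.42 to 0.48 and TAC3 with PDYN from -0.83 to 0.15. The cause of these turns was not tested. GNRH1, TACR3 and OPRK1 kept their sign under all alternatives. Depth limits KISS1, KISS1R and NPFFR1, which rest on 2 to 22 fragments in a library.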
